A study of Mus musculus with 6 samples.

Results

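The genes described here are 10 targets of the transcription factor p53 that act in cell-cycle arrest: Cdkn1a, Ccng1, Btg2, Gtse1, Sesn1, Sesn2, Zmat3, Plk2, Plk3 and Ckap2. Every non-control probe that carried one of these symbols, or an earlier symbol of the same gene, was taken, which gave 12 probes out of 55681 and 10 genes out of 22221 that the arrays could name. Cdkn1a had 3 probes and each other gene had 1. RNA came from G1E-ER-GATA-1 cells. These mouse cells are immortal erythroid precursors without a working Gata1 gene of their own, and they make a GATA-1 protein joined to the hormone-binding domain of the estrogen receptor; adding β-estradiol therefore activates GATA-1 and starts erythroid maturation. One group of 3 arrays held cells given a non-targeting control siRNA, and the other group of 3 arrays held cells given an siRNA against SetD8 (current symbol Kmt5a), a histone methyltransferase. All cells of both groups were transfected at 0 h and again at 24 h, received β-estradiol from 24 h on, and were harvested at 48 h, so every array reports on maturing cells after 24 h of estradiol, and no array of cells without estradiol was compared here. The whole study rests on a single cell line, the labels name 1 SetD8 reagent without its sequence, and they do not say whether the arrays of a group were separate cultures, so every p-value reflects the spread among these arrays alone, and that spread may be technical.

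p53 is a DNA-binding protein that accumulates under stress and switches on genes whose promoters or introns hold its binding site, a pair of half-sites. Its best known arrest target is Cdkn1a, which encodes p21, an inhibitor of cyclin-dependent kinases. By blocking these kinases p21 keeps the pocket proteins unphosphorylated. Some pocket proteins, as part of the DREAM complex, repress genes of DNA replication and mitosis, many of these genes through a CHR element near the start site. Erythroid maturation ends in a programmed exit from the cell cycle in which p21 and other kinase inhibitors take part.

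The stretches of 250 bases before 4 RefSeq transcript starts are shown. In them the best known element of this pathway, the p53 site next to Cdkn1a start 1, can be read in letters. They also set members that differed between the groups beside 1 whose groups overlapped. RefSeq sequences of build GRCm38.p6 were found for 9 of the 10 members, in 12 windows, and Zmat3 had no entry. Each sequence is printed 5′ to 3′ along the strand of the gene and ends at the base before the start. Capitals mark matches to the p53 half-site consensus, or to a full site, which here means a pair of half-sites of 20 bases with no spacer, both cores intact and at most 2 mismatches elsewhere. The windows are chr17:29090729-29090978 on the plus strand for Cdkn1a start 1, chr17:29093519-29093768 on the plus strand for Cdkn1a start 2, chr11:40755287-40755536 on the minus strand for Ccng1 and chr8:22185820-22186069 on the minus strand for Ckap2.
Cdkn1a start 1: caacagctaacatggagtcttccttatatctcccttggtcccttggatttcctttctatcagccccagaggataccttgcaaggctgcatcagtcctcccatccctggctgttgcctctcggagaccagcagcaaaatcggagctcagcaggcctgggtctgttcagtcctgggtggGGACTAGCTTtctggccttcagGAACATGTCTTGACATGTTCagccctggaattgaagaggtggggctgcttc
Cdkn1a start 2: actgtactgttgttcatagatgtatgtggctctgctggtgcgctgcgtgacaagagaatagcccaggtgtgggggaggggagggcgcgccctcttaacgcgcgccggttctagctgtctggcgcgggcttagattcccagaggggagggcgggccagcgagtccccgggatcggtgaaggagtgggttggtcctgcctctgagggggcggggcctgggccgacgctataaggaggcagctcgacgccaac
Ccng1: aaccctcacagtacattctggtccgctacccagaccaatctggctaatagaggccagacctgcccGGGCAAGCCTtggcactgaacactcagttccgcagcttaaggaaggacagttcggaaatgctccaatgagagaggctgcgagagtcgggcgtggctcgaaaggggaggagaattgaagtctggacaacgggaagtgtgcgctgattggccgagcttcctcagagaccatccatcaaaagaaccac
Ckap2: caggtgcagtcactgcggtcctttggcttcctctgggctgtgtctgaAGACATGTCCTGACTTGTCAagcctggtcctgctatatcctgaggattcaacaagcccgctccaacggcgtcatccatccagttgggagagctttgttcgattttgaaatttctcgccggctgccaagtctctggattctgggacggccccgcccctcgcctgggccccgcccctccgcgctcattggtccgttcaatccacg
The Cdkn1a start 1 window held half-sites 73 and 51 bases before the start, and the second of these belonged to the full site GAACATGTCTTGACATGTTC, with 1 mismatch. The Cdkn1a start 2 window held no half-site and no full site. Which start belongs to which Cdkn1a probe was not looked up. A full site with 2 mismatches, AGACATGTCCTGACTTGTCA, lay 203 bases before the Ckap2 start. Single half-sites lay 185 bases before the Ccng1 start and 173 bases before the Sesn1 start 2, and the windows of Btg2, Gtse1, Sesn2, Plk2 and Plk3 held no match to these letters. Over all 32851 RefSeq windows of the same length, 7.13% held a half-site and 0.134% held a full site, against 4 and 2 of the 12 member windows. Both windows with a full site are among the 4, since a half-site forms part of each full site. The members were chosen as p53 targets, so these counts are descriptions and no separate evidence. The CHR element, searched as TTTGAA or TTCGAA on both strands, occurred in 1 member window, 101 bases before the Ckap2 start, and in 17.1% of all windows. CCAAT, searched on both strands, occurred in 8 member windows and in 33.8% of all windows. A match is a description of the letters in this window and does not show that p53 or another factor binds there.

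**Figure D1:**
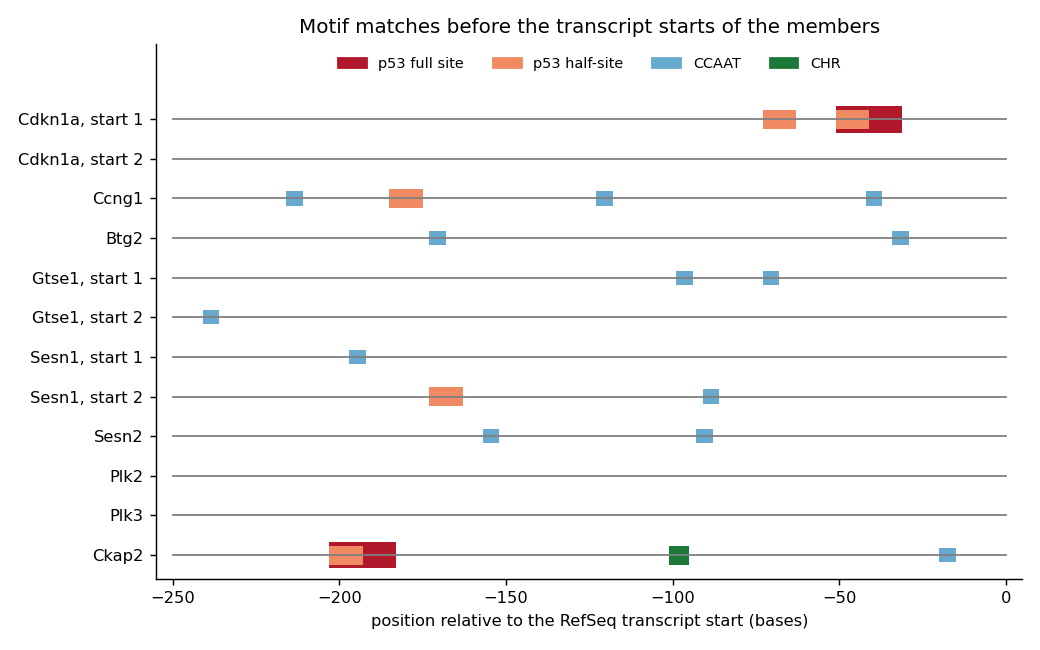
Positions of motif matches in the 250 bases before each RefSeq transcript start of the members, in bases relative to the start; each line is 1 window and boxes are matches to the p53 full site, the p53 half-site, CCAAT and CHR. The p53 full sites lie 51 bases before Cdkn1a start 1 and 203 bases before the Ckap2 start.

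The arrays were read in 1 colour, and 40.2% to 82.5% of the non-control spots were well above background on an array, the lowest and highest share both belonging to control arrays (replicates 2 and 3). In the standard setting the log2 processed signal was taken relative to the 75th percentile of each array. In a further setting the background was corrected by the normexp method and the arrays were quantile normalised, which gives all arrays the same distribution of values; the median SD of a probe within its group was 0.24 in this setting and 0.54 at the 75th percentile scaling. Differences below are SetD8 siRNA minus control siRNA in log2 units, tested with limma over 30987 probes that were well above background on every array of at least 1 group, and a probe was called at an adjusted p under 0.05. The arrays lay on 3 slides: control replicate 1 shared slide 1 with SetD8 replicates 1 and 2, control replicate 3 shared slide 3 with SetD8 replicate 3, and control replicate 2 was alone on slide 2 and was scanned on another day. The targeted gene was lower in the SetD8 arrays, as its main probe gave 11.49, 11.57 and 11.23 on the control arrays against 9.58, 9.26 and 9.24 on the SetD8 arrays, a difference of -2.07 ± 0.16 (SE, limma adjusted p = 0.0172; adjusted p = 0.0736 with the slide as a block), and the other Setd8 probe differed by -1.13 ± 0.24 (adjusted p = 0.146). Of 9 erythroid marker genes on the arrays, all 9 were well above background on every array and limma called 0 of 9. An unadjusted limma p under 0.05 was found for 2, against 15.8% of all genes. The RNA came from whole cultures, so fewer cells of a type and less RNA per cell cannot be told apart.

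Cdkn1a, the gene of the kinase inhibitor p21, was higher in SetD8 siRNA cells on 2 of its 3 probes. Probe 1, at chr17:29237377-29237436 (mm9, plus strand) and named for transcript variant 1, had a normalised log2 signal of 11.83, 11.93 and 11.69 on control replicates 1 to 3 and of 13.14, 13.43 and 13.05 on SetD8 replicates 1 to 3. Probe 2, at chr17:29227986-29228045 and named for transcript variant 2, gave 8.07, 7.83 and 8.42 on the control arrays and 9.65, 9.87 and 9.96 on the SetD8 arrays. On both probes the lowest SetD8 array lay above the highest control array by more than the SD of either group. Probe 1 went from 11.81 ± 0.12 to 13.21 ± 0.20 (SD, n = 3), which is 2.63-fold, and probe 2 went from 8.11 ± 0.30 to 9.83 ± 0.16, which is 3.29-fold. Both passed the test after normexp and quantile normalization, with differences of 1.39 ± 0.15 (SE, limma adjusted p = 0.0259) and 1.72 ± 0.19 (adjusted p = 0.0256).

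The increase was of like size in each comparison that could be made between arrays of 1 slide. Within slide 1 the difference was 1.46 for probe 1 and 1.69 for probe 2, and within slide 3 it was 1.36 and 1.54. The fit with the slide as a block, which combines these same comparisons, gave 1.42 ± 0.17 and 1.62 ± 0.16 (SE). The calls were lost there (limma adjusted p = 0.100 and 0.0913), with fewer residual degrees of freedom and no use of control replicate 2. Which of these ended the calls was not tested. The 75th percentile scaling gave differences of 1.22 ± 0.48 and 2.04 ± 0.36. The groups again did not overlap, and neither passed (limma adjusted p = 0.931 and 0.825). Probe 2 passed there with the slide as a block (1.91 ± 0.50, adjusted p = 0.0356), a fit in which limma gave every probe the same SE. Leaving out control replicate 1 or any 1 SetD8 array also ended both calls, with differences that stayed between 1.28 and 1.81.

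The third Cdkn1a probe did not separate the groups. It lies at chr17:29235299-29235358 and is named for an Ensembl transcript of the gene. Its values were 6.95, 7.28 and 6.42 on the control arrays and 6.94, 6.78 and 6.85 on the SetD8 arrays, so that the SetD8 arrays lay inside the range of the controls. The difference was -0.023 ± 0.23 (SE, limma adjusted p = 0.989), and its sign turned to 0.14 with the slide as a block. Set against the same arrays' difference on the other probes, probe 3 differed by -1.42 from probe 1 and by -1.74 from probe 2 (exact two-sided permutation p = 0.1 for each, the smallest that 3 against 3 arrays allow; 0.15 after adjustment over the 3 pairs), and probe 2 differed from probe 1 by 0.33 (exact permutation p = 0.4). In the standard setting, the 75th percentile scaling, probe 2 differed from probe 1 by 0.83 (exact permutation p = 0.4), and probe 3 from them by -1.23 and -2.05 (exact permutation p = 0.1 for each). Probe 3 had a processed signal of 32.6 to 72.9 intensity units, well above background on all 6 arrays. Whether it reports a separate transcript of the gene was not tested.

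**Figure D2:**
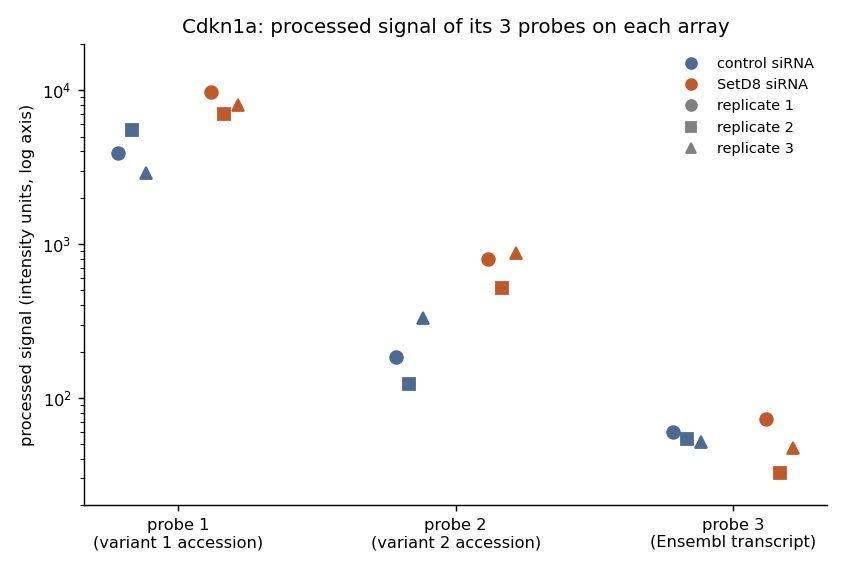
Processed signal of the 3 Cdkn1a probes on each of the 6 arrays, in intensity units on a log axis; colours are the groups and marker shapes the replicate numbers, and levels of different probes are not comparable. On probes 1 and 2 every SetD8 array lies above every control array, and on probe 3 the groups overlap.

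Ccng1, which encodes cyclin G1, a partner of the phosphatase PP2A and part of the feedback on p53, was higher on every SetD8 array. Its probe at chr11:40562427-40562486 (mm9, minus strand) gave 10.45, 10.56 and 10.02 on the control arrays and 12.04, 11.76 and 11.95 on the SetD8 arrays. The gap between the groups was wider than the range within either. The mean went from 10.35 ± 0.28 to 11.91 ± 0.14 (SD, n = 3), a 2.97-fold difference of 1.57 ± 0.18 on the log2 scale (SE, limma adjusted p = 0.0302). Slide 1 alone gave 1.45 and slide 3 alone gave 1.93. The fit with the slide as a block gave 1.65, where the call was lost (adjusted p = 0.100), as it was when control replicate 1 or any 1 SetD8 array was left out. The 75th percentile scaling gave 1.46 ± 0.51 (adjusted p = 0.931).

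Zmat3 showed the widest difference among the 10 member probes that were tested after normexp and quantile normalization, and also the widest spread among the controls. The gene encodes a zinc finger protein that binds RNA. Its probe at chr3:32233831-32233890 (mm9, minus strand) gave 8.78, 8.82 and 7.71 on control replicates 1 to 3, and 10.24, 10.23 and 10.68 on the SetD8 arrays. Control replicate 3 stood below the other controls and SetD8 replicate 3, its neighbour on slide 3, above the other SetD8 arrays. The mean was 3.85-fold higher, at 8.44 ± 0.63 in controls and 10.38 ± 0.26 in SetD8 cells (SD, n = 3), and the difference of 1.94 ± 0.32 (SE) missed the threshold over all probes (limma adjusted p = 0.0851) and passed it when each gene was represented by 1 probe, over 14431 genes (adjusted p = 0.0469). Without control replicate 3 the difference was 1.58, and it passed over all probes too (adjusted p = 0.0361). It was 1.45 within slide 1 and 2.97 within slide 3. With the slide as a block it was 2.10 and did not pass (limma adjusted p = 0.177). At the 75th percentile scaling the block gave a call (2.22 ± 0.50, adjusted p = 0.00396) that the fit without it did not (1.92 ± 0.51, adjusted p = 0.931). In that block fit limma gave every probe the same SE, so the call does not rest on the spread of Zmat3 itself. The Zmat3 difference at this scaling was 1.44 within slide 1 and 3.27 within slide 3.

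The sestrins are stress-induced proteins that restrain the growth kinase complex mTORC1, and 2 of the family are on the list. Sesn2, probed at chr4:132048858-132048917 (mm9, minus strand), gave 10.91, 10.64 and 11.19 on the control arrays and 11.82, 12.47 and 11.95 on the SetD8 arrays. No SetD8 array fell within the control range. The mean was 10.92 ± 0.27 in controls and 12.08 ± 0.35 (SD, n = 3) in SetD8 cells, a 2.24-fold difference of 1.16 ± 0.23 (SE) that did not pass the test over probes (limma adjusted p = 0.119) or over genes (adjusted p = 0.0644). Slide 1 alone gave 1.23, slide 3 alone gave 0.75, and the 75th percentile scaling gave 1.02 ± 0.37. Sesn1, probed at chr10:41628012-41628071 (plus strand), gave 10.33, 10.32 and 10.17 against 10.53, 10.50 and 10.43. Here the groups also did not overlap, but the difference was only 0.21 ± 0.12 (adjusted p = 0.657). The groups overlapped at the 75th percentile scaling, with a difference of 0.07 ± 0.47. Whether the 2 sestrins differ in response was not tested.

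Btg2, an antiproliferative protein that recruits the deadenylase that shortens mRNA tails, was not higher in SetD8 cells. Its probe at chr1:135972094-135972153 (mm9, minus strand) gave 12.60, 12.67 and 12.54 on the control arrays and 12.58, 12.19 and 12.28 on the SetD8 arrays. SetD8 replicate 1 lay within the control range and the other two below it. The difference was -0.26 ± 0.15 (SE, limma adjusted p = 0.658). The 75th percentile scaling gave -0.46 ± 0.47.

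Plk2 and Plk3 encode polo-like kinases that respond to stress. The Plk3 probe, at chr4:116801317-116801376 (mm9, minus strand), gave 6.58, 7.18 and 6.40 on the control arrays and 6.78, 6.77 and 6.87 on the SetD8 arrays. All SetD8 values lay between the controls, and the difference was 0.09 ± 0.22 (SE, limma adjusted p = 0.946). The 75th percentile scaling gave 0.27 ± 0.36 and the fit with the slide as a block 0.31, with no call in either. The Plk2 probe, at chr13:111190915-111190974 (plus strand), was well above background on 0 of 6 arrays, with processed signals of 3.41, 4.73 and 8.80 in controls and 4.60, 3.76 and 10.3 in SetD8 cells, so no fold is given.

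Gtse1 and Ckap2 encode proteins that bind microtubules and are made mainly in G2 and mitosis; Gtse1 also restrains p53. The Gtse1 probe, at chr15:85706887-85706946 (mm9, plus strand), was well above background on no array, with processed signals of 7.48, 3.92 and 9.15 in controls and 3.75, 2.86 and 3.93 in SetD8 cells. Like Plk2, it did not enter the test. The Ckap2 probe, at chr8:23279384-23279443 (minus strand), gave 8.37, 8.67 and 7.67 on the control arrays and 8.09, 7.85 and 8.19 on the SetD8 arrays. The SetD8 arrays lay inside the control range, and the difference was -0.20 ± 0.26 (SE, limma adjusted p = 0.885). The 75th percentile scaling gave -0.50 ± 0.44 (adjusted p = 0.931), and the fit with the slide as a block -0.0083 (adjusted p = 0.997). Slide 1 alone gave -0.40 and slide 3 alone 0.52, and the value without control replicate 2 was 0.02. Ckap2 is the member, besides Cdkn1a, with a full p53 site among the letters printed above, and the only one with a CHR match; the level of its probe did not separate the groups.

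**Figure D3:**
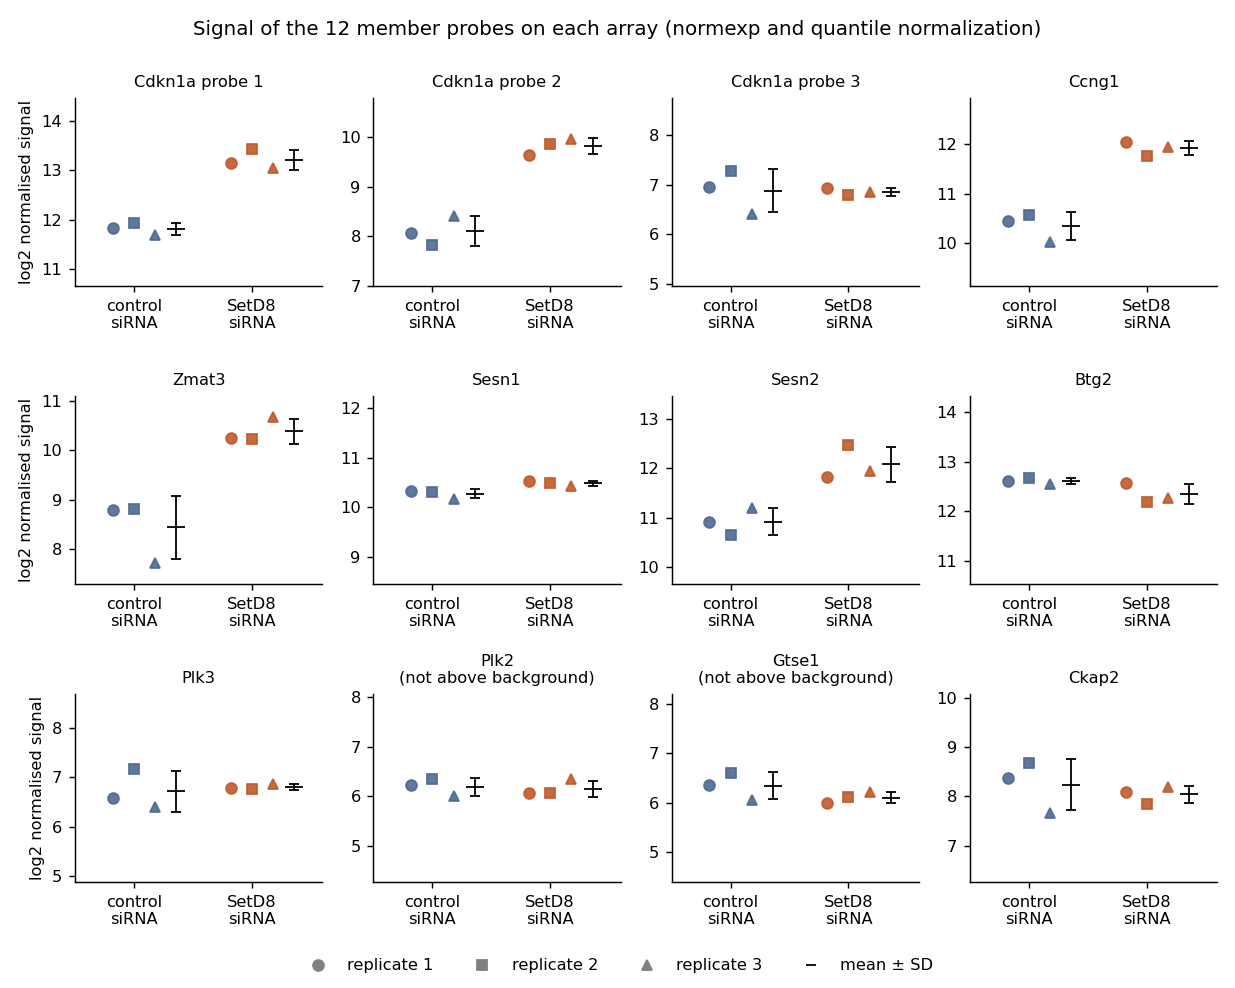
Log2 normalised signal (normexp and quantile normalization) of the 12 member probes on the 3 control siRNA and 3 SetD8 siRNA arrays; marker shapes are replicate numbers, bars are the mean ± SD, and each panel has its own axis of equal length. The groups stand apart for Cdkn1a probes 1 and 2, Ccng1, Zmat3, Sesn2 and, by a small margin, Sesn1, while Plk2 and Gtse1 were not well above background.

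Of the 12 probes, 10 passed the filter on dim probes, all of them well above background on all 6 arrays. After normexp and quantile normalization, 3 of these 10 were called higher (both Cdkn1a probes and Ccng1) and 0 lower, where 0.303% of all tested probes were called higher and 0.0194% lower. With 1 probe per gene, 3 of 8 member genes were called higher (Cdkn1a, Ccng1 and Zmat3) and 0 lower, against 1.46% and 0.236% of all genes. In this setting 6 of 10 probes had all SetD8 arrays above all control arrays, against 9.49% of all probes, and 0 had them all below, against 8.18%. At the 75th percentile scaling, limma called 0 of the 10 in either direction, as it did 0% of all probes; 5 of the 10 had an unadjusted p under 0.05, against 2.5% of all probes, and 5 had one after normexp and quantile normalization, against 10.3%. At the 75th percentile scaling, 5 of 10 had groups that did not overlap with SetD8 higher, against 4.56% of all probes, and 0 had SetD8 lower, against 3.01%.

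With the slide as a block, 0 of the 10 probes were called after normexp and quantile normalization, as were 0% of all probes; 5 of the 10 had an unadjusted p under 0.05, against 9.27% of all probes. With 1 probe per gene the block left 0 of 8 member genes called in either direction, against 0.0901% of all genes called higher and 0.00693% lower. The same block at the 75th percentile scaling called 2 of 10 higher (Cdkn1a probe 2 and Zmat3) and 0 lower, against 0.349% and 0.0581% of all probes. There limma took 1 spread for all probes, so these calls do not rest on each probe's own spread. The median difference over the 10 probes was 0.69 after normexp and quantile normalization and 0.65 at the 75th percentile scaling, with 7 of 10 positive in each, and the median over all tested probes was 0.01 and 0.09.

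**Figure D4:**
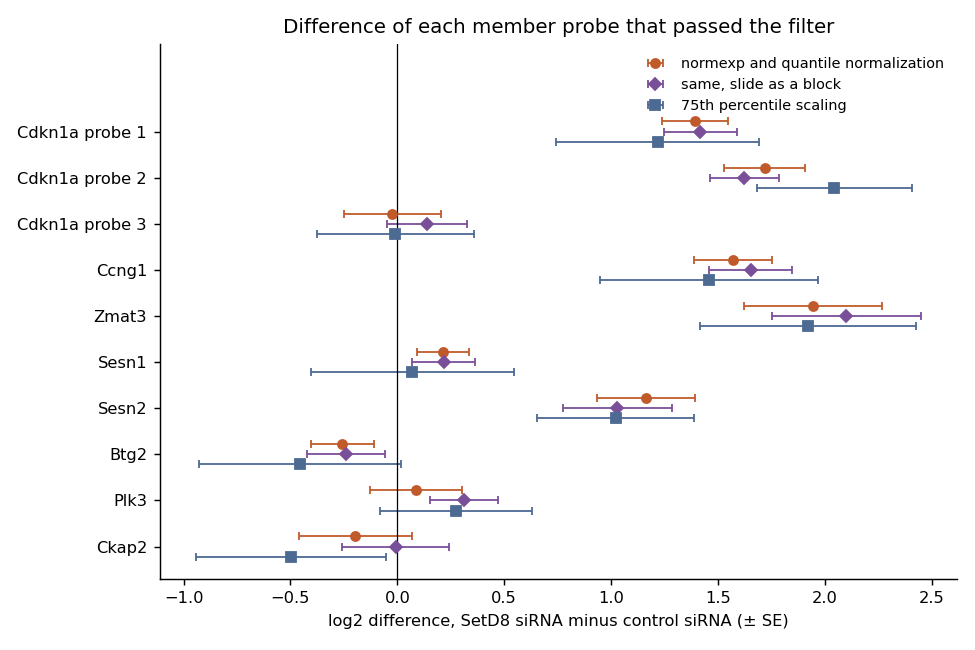
Log2 difference, SetD8 siRNA minus control siRNA, of the 10 member probes that passed the filter, with bars of ± SE from limma, in 3 fits: normexp and quantile normalization, the same with the slide as a block, and the 75th percentile scaling. Cdkn1a probes 1 and 2, Ccng1, Zmat3 and Sesn2 lie at or above 1 in all 3 fits, and the bars of the 75th percentile scaling are wider.

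Most member probes had a larger SD among the control arrays than among the SetD8 arrays, 7 of 10 after normexp and quantile normalization and 9 of 10 at the 75th percentile scaling. In the first of these settings Cdkn1a probe 1, Sesn2 and Btg2 varied more among the SetD8 arrays. After normexp and quantile normalization the median SD of a member probe was 0.29 over the controls and 0.17 over the SetD8 arrays, against 0.26 and 0.16 over all tested probes. The 75th percentile scaling gave 0.74 and 0.19 for the members, against 0.71 and 0.27 over all tested probes. Control replicate 3 gave the lowest control value on 8 of the 10 probes in both settings, and control replicate 2 the highest on 7 and 8 of 10. These are the arrays with the highest and the lowest share of spots well above background, and the part of this in the members' spread was not tested. The control levels of Cdkn1a probe 2 and Sesn2 ran the other way after normexp and quantile normalization, with control replicate 2 lowest and control replicate 3 highest.

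The other genes of the pathway were read with 1 probe per gene, after normexp and quantile normalization. Of 39 p53 targets outside the members, 33 were measured, and 8 were called higher and 0 lower (1.46% and 0.236% of all genes). The difference was positive for 25 of 33, against 7944 of all 14431 genes. The median difference of the 33 was 0.38 against 0.03 over all genes. Most of the calls fell among p53 targets of cell death, where 5 of 11 measured genes were called higher and the median was 0.91. Phlda3, an inhibitor of the kinase AKT, differed by 2.71 (limma adjusted p = 0.0101), and Trp53inp1, a p53-induced nuclear protein, by 2.34 (adjusted p = 0.00883). The BH3-only protein gene Bbc3 (Puma) differed by 1.18 (adjusted p = 0.0194) and Bax, a pore-forming protein of the mitochondrial outer membrane, by 1.12 (adjusted p = 0.0218). With the slide as a block, Phlda3 alone of the 33 kept a call (adjusted p = 0.0382).

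Among the p53 targets of metabolism, 2 of 10 were called higher: Cpt1c (1.37, limma adjusted p = 0.0110), a brain-type member of the carnitine palmitoyltransferases, and Aldh4a1 (1.14, adjusted p = 0.0356), an enzyme of proline breakdown. Ercc5, a nuclease of nucleotide excision repair, was the 1 gene called among 7 repair targets (1.04, adjusted p = 0.0242), and the median of that list was 0.02, which turned to -0.13 at the 75th percentile scaling. Other p53 targets of arrest gave 0 of 5 calls in limma (1 at an unadjusted p under 0.05, where 15.8% of all genes were) and a median of 0.14 (0.52 at the 75th percentile scaling, 0.27 with the slide as a block), led by Pml, the organiser of nuclear bodies, at 0.65 (adjusted p = 0.0528). None of the calls in these lists was kept with the slide as a block.

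The genes of p53 itself and its regulators gave 0 calls in 16 and a median of -0.06 (-0.12 at the 75th percentile scaling). An unadjusted limma p under 0.05 was found for 4 of 16, against 15.8% of all genes. The difference was negative for 11 of 16, against 6487 of all 14431 genes. Mdm2, the ubiquitin ligase that p53 induces and that degrades it, differed by 0.63 (limma adjusted p = 0.0509), and its relative Mdm4 by 0.92 (adjusted p = 0.148). The coactivator gene Ep300 was at -0.81 (adjusted p = 0.0734). Downstream of p21, the cyclins, kinases and pocket proteins gave 0 calls in 15 and a median of -0.03 (-0.21 at the 75th percentile scaling). Here 6 of 15 had an unadjusted limma p under 0.05, against 15.8% of all genes. Rb1, a pocket protein, was at 0.59 (limma adjusted p = 0.0637) and the cyclin D gene Ccnd3 at 0.58 (adjusted p = 0.0566). Pcna, the sliding clamp that p21 binds, was at -0.73 (limma adjusted p = 0.0724).

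The G2/M genes that p21 and DREAM are known to repress gave 0 calls in 19. Of these, 13 had an unadjusted limma p under 0.05, against 15.8% of all genes. All 19 differences were negative, from -0.67 to -0.07, against 6487 of all 14431 genes. Their median was -0.41 against 0.03 over all genes. This holds for the list as drawn, which was chosen with earlier results of these data known. Cdk1 and Ccna2, placed among the cyclins and kinases instead, were at 0.05 (limma adjusted p = 0.959) and -0.31 (adjusted p = 0.258). For 15 of the 19 every SetD8 array lay below every control array, against 9.95% of all genes. Kif11, a spindle motor, was at -0.67 (limma adjusted p = 0.0669), Top2a, a topoisomerase, at -0.52 (adjusted p = 0.109), Bub1, a spindle checkpoint kinase, at -0.47 (adjusted p = 0.110) and Birc5 (survivin) at -0.44 (adjusted p = 0.114). Over the 19 genes the median was -0.58 at the 75th percentile scaling and -0.40 with the slide as a block. The paralogs of the members gave 0 calls in 8 (1 at an unadjusted p under 0.05) and a median of 0.02, which turned to -0.13 at the 75th percentile scaling, with Btg3 at -0.47 (adjusted p = 0.276) and Btg1 at -0.32 (adjusted p = 0.469), both relatives of Btg2.

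**Figure D5:**
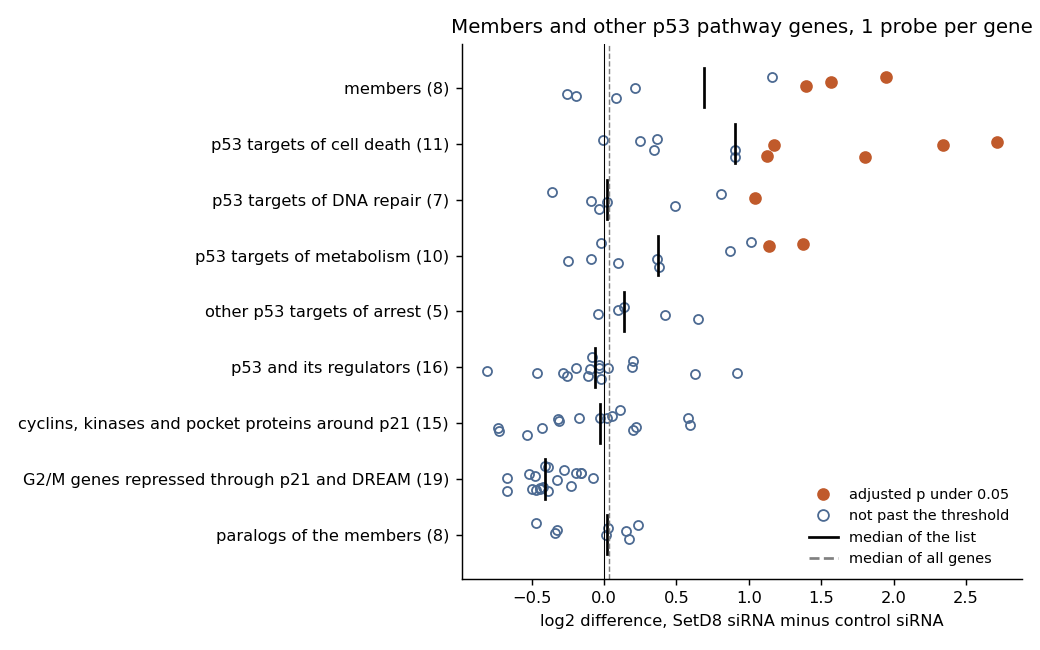
Log2 difference, SetD8 siRNA minus control siRNA, of each measured gene (1 probe per gene, normexp and quantile normalization) in the members and in 8 lists of pathway genes; filled points passed an adjusted p under 0.05 in limma, black bars are list medians, the dashed line is the median of all genes, and counts of measured genes are in brackets. Calls lie among the members and the p53 targets of cell death, metabolism and DNA repair, and all 19 genes of the G2/M list as drawn lie below 0.

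The genes outside these lists whose log2 values over the 6 arrays were most like those of Cdkn1a probe 1 were Aaas, a nuclear pore protein gene (Pearson r = 0.998), Psmb9, a subunit of the immunoproteasome (r = 0.997), and Cd68, a lysosomal protein gene of macrophages (r = 0.996). The split between the groups sets most of each r, and the arrays share their normalization. Their differences were 0.85, 0.81 and 0.73 (limma adjusted p = 0.0324, 0.0300 and 0.0342). Since the genes were picked by likeness to Cdkn1a on these same arrays, these p-values are no separate evidence.

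Cd68 is also a marker of macrophages. Of 7 macrophage and granulocyte markers, 4 were well above background on all 6 arrays. Of 4 measured, 1 (Cd68) was called higher and 0 lower, against 1.46% and 0.236% of all genes. For 2 the unadjusted limma p was under 0.05, against 15.8% of all genes, and the median difference was 0.50. The summed normalised signal of the 4 measured markers, Cd68 among them, was 1133 to 1540 in controls and 1836 to 2471 in SetD8 cells, so the groups did not overlap. Of all 14431 genes, 1980 had every SetD8 array above every control array. Cd68 was picked above by its likeness to Cdkn1a on these arrays, so its call and its part in the sum are no separate evidence. A sum without Cd68 was not computed. The 4 measured of the 5 megakaryocyte markers summed to 6917 to 16985 in controls and 10499 to 24294 in SetD8 cells, and these ranges overlapped. Ppbp was well above background on no array. Of the megakaryocyte, mast cell, lymphoid and stromal and endothelial markers limma called 0, with an unadjusted p under 0.05 for 1 (a megakaryocyte marker). The part of these cell types in the members' differences was not tested.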

How the data were processed

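Total RNA of 3 control siRNA and 3 SetD8 siRNA samples was read on 1-colour Cy3 arrays of 62976 spots. The deposited intensity values are spot signals that, per the file headers, were extracted with Agilent's Feature Extraction software (version 10.7.3.1): the mean signal, the local background and a processed signal from which background was already subtracted. The submitters' processing notes name limma, with no role; probe coordinates are mm9 per the file headers, and the exon or intron of a probe was not looked up. Spots of a probe were averaged and outlier spots left out; no spot was saturated. From the deposited intensities, log2 values were computed either from the processed signal minus each array's 75th percentile or after normexp (offset 50) and quantile normalization, which compresses differences of dim probes. limma 3.58.1 in R 4.3.3 was fitted to all kept probes or to the brightest kept probe per gene, with Benjamini-Hochberg adjustment; the code was tested on simulated data. Genes were named through RefSeq accessions, symbols or synonyms (24461 probes unnamed). The members, the gene lists and the second setting were chosen with earlier results of these data known, and counts over lists are descriptions. Named genes were all member and Setd8 probes, up to 4 genes per list with the smallest p, and the 3 genes most like Cdkn1a, of which not all are described. The slide, left-out arrays, filters and normalizations were tried as alternatives. The number of arrays limits the precision.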

Additional observations from a re-analysis of the deposited data

How the results depend on the processing

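Directions held more firmly than calls. In the standard setting (75th percentile scaling) 0 member probes were higher; 2 were called with the stricter filter (a probe well above background on every array) and 2 with the slide as a block, 1 after normexp with the 75th percentile, 3 after normexp and quantile normalization, and 0 to 2 when 1 array was left out, with 2 without control replicate 2. After normexp and quantile normalization 3 were higher; the count was 5 with trend and robust moderation, 0 when the slide was a block, 0 under the 75th percentile scaling, 0 with a normexp offset of 16, 1 after normexp with the 75th percentile, 0 after quantile normalization of the processed signal, and 0 to 4 when 1 array was left out, with 0 without control replicate 1 or any 1 SetD8 array. The 8 higher p53 targets outside the members became 13 with the stricter filter, 0 at the 75th percentile scaling, 1 with the slide as a block, 3 after normexp with the 75th percentile, 3 after quantile normalization of the processed signal, and 0 to 8 when 1 array was left out, with 0 without control replicate 1 or any 1 SetD8 array. The Setd8 probe at -2.07 gave -2.24 at the 75th percentile scaling, -2.04 with the slide as a block, -2.10 after quantile normalization of the processed signal and -2.18 to -2.0005 when 1 array was left out; it lost its call in these, except without control replicate 2 or 3. Over 13 alternatives Cdkn1a probe 1 and Ccng1 each kept the call in 3 and Cdkn1a probe 2 in 4, with differences of 1.17 to 1.47, 1.37 to 1.68 and 1.58 to 2.04. After normexp and quantile normalization the sign turned in 3 member probes, none of them called: Cdkn1a probe 3 (-0.023) gave 0.14 with the slide as a block, 0.13 after normexp with the 75th percentile, 0.44 within slide 3, and 0.0095, 0.18 and 0.015 without control replicate 1, control replicate 2 and SetD8 replicate 2 (-0.26 to 0.18 when 1 array was left out). Ckap2 (-0.20) gave 0.52 within slide 3 and -0.48 to 0.020 when 1 array was left out, the positive value without control replicate 2. Plk3 (0.09) gave -0.075 to 0.32, the negative value without control replicate 3. At the 75th percentile scaling Btg2 (-0.46), Ckap2 (-0.50) and Cdkn1a probe 3 (-0.0089) gave 0.36, 0.42 and 0.43 within slide 3, Cdkn1a probe 3 gave 0.05 with the slide as a block, and Sesn1 (0.07) gave -0.12 within slide 1. The causes were not tested.

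Samples of like replicate number did not all deviate together (correlations of 0.19, -0.25 and -0.19). The arrays also differed in slide and in the share of spots above background. These correlations therefore cannot tell whether like numbers mark paired samples. With the replicate number as a block, after normexp and quantile normalization, 0 member probes and 0 other p53 targets were called, and Setd8 stayed at -2.07 (limma adjusted p = 0.292); 2 residual degrees of freedom were left. Weighting arrays by quality gave no usable weights and is left out. The probes of Gtse1 and Plk2 lay too near background for any difference to be read.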
